A study of Mus musculus with 12 samples.

Results

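The genes examined here encode subunits of the GABA-A receptor, the chloride channel through which the transmitter GABA inhibits neurons in the cortex. They are Gabrb1 and Gabrb2 (beta), Gabrg1 and Gabrg3 (gamma), Gabrd (delta), Gabre (epsilon) and Gabrq (theta), taken as the rows of the count table with these gene symbols, 7 of 33024 in all. RNA was sequenced from the cortex of 12 C57BL/6 mice, 7 controls and 5 EtOH mice. From 30 days of age, EtOH mice could drink from a bottle of 20% (v/v) ethanol or a bottle of water in 35 sessions of 12 h in the dark, while both bottles of controls held water. Both groups then had 14 days without ethanol and went through behavioural tests before the tissue was taken, and the labels call the control treatment vehicle. Each library is taken as 1 mouse, although the labels do not say so, and p-values measure the spread between these libraries. The tissue is cortex with all its cell types, and each EtOH mouse chose how much ethanol it drank.

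Library totals ranged from 31768092 to 40690235 counts in controls and from 32048734 to 42183041 in EtOH mice, with the deepest libraries in control mouse 5 and EtOH mouse 1. Levels are given as CPM, the usual count scaled to library size, with TMM factors to balance the libraries. The labelled tissue was checked with markers of cortical glutamatergic neurons, among which Slc17a7 had 1682 to 2213 CPM and Camk2a 3088 to 4406 CPM over the 12 mice. In bulk tissue, fewer cells of a type and less RNA per cell cannot be told apart. Marker lists of other regions and cell types also differed between these groups. All 13 markers of striatal spiny neurons were called lower in EtOH mice, with a summed level of 1272 to 2892 CPM in controls and 379 to 449 CPM in EtOH mice, and the summed levels of hippocampal CA markers (473 to 546 against 587 to 763 CPM) and thalamic markers (139 to 153 against 188 to 207 CPM) were higher in every EtOH mouse than in every control. Of 8 dentate granule cell markers, 4 were called higher (median log2 fold change 0.70), and their sum was 179 to 234 CPM in controls and 201 to 315 CPM in EtOH mice. Microglial markers summed to 293 to 320 CPM in controls and 253 to 277 CPM in EtOH mice, with none of 6 called and 4 of 6 lower by the adjusted p alone. All 6 oligodendrocyte markers were lower by the adjusted p, and Mbp and Mobp were called, with sums of 4285 to 5703 against 2872 to 5139 CPM. Of 5 tested choroid plexus markers, 3 were called higher, with a median log2 fold change of 2.72 and sums of 7.86 to 21.7 CPM in controls and 11.5 to 991 CPM in EtOH mice. EtOH mice 2 and 5 lay within the control range of this sum, and limma voom called 1 of these markers.

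A GABA-A receptor is a ring of 5 subunits around a pore, most often alpha and beta subunits together with a gamma or a delta subunit. Beta subunits form the GABA binding site with alpha subunits. A gamma subunit can hold receptors at synapses and give sensitivity to benzodiazepines, which need not hold alike for every gamma subunit. The delta subunit takes the place of gamma in receptors outside the synapse that carry a steady, tonic inhibition. Receptors with delta subunits respond to neurosteroids and have long been studied for their sensitivity to ethanol. Epsilon and theta subunits are found mainly in hypothalamus and brainstem nuclei.

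The kinship of the genes shows in the best conserved stretch of their coding sequences, 60 bases found by aligning the main transcript of each gene and shown here because it is what the 7 genes have in common. Capitals mark the 28 positions at which all 7 genes carry the same base.
Gabrb1: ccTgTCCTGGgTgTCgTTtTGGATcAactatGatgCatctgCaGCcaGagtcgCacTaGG
Gabrb2: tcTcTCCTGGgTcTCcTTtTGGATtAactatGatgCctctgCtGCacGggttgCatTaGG
Gabrg1: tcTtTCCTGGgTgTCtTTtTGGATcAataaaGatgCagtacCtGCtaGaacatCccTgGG
Gabrg3: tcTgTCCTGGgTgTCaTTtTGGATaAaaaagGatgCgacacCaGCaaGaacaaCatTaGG
Gabrd: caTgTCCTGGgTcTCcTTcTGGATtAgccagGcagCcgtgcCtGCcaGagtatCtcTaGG
Gabre: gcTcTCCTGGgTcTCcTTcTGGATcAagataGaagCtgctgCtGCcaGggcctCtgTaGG
Gabrq: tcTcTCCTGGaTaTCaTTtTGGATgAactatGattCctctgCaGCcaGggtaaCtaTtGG
In Gabrb1 the stretch covers bases 777 to 836 of the coding sequence, and the mean identity over pairs of genes was 69.3%. Over the whole coding sequence, Gabrb1 and Gabrb2 were 70.5% identical and Gabrg1 and Gabrg3 65.4%, while all other pairs lay between 44.7% (Gabre and Gabrq) and 54.8% (Gabrb2 and Gabrq). Gabrd was nearest to Gabrb2 (53.6%). The Gabre coding sequence, of 2748 bases, was the longest, against 1347 for Gabrd.

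Of the 7 genes, all passed the expression filter and 1 was called different between the groups, Gabrd, which was lower in EtOH mice by both criteria, a log2 fold change of more than 0.5 in size and an adjusted p from edgeR below 0.05. Of the 16059 genes tested, 8.29% were called by this rule, 4.2% as higher and 4.09% as lower. With the adjusted p alone, 4 of the 7 passed, where 23.7% of all genes did. Gabrb1 and Gabrb2 rose and Gabrd and Gabrg3 fell, while Gabrg1, Gabre and Gabrq did not pass. The median log2 fold change was -0.19 over the 7 genes and 0.0 over all genes tested. With 7 genes, these shares are a description and no claim about the family.

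**Figure D1:**
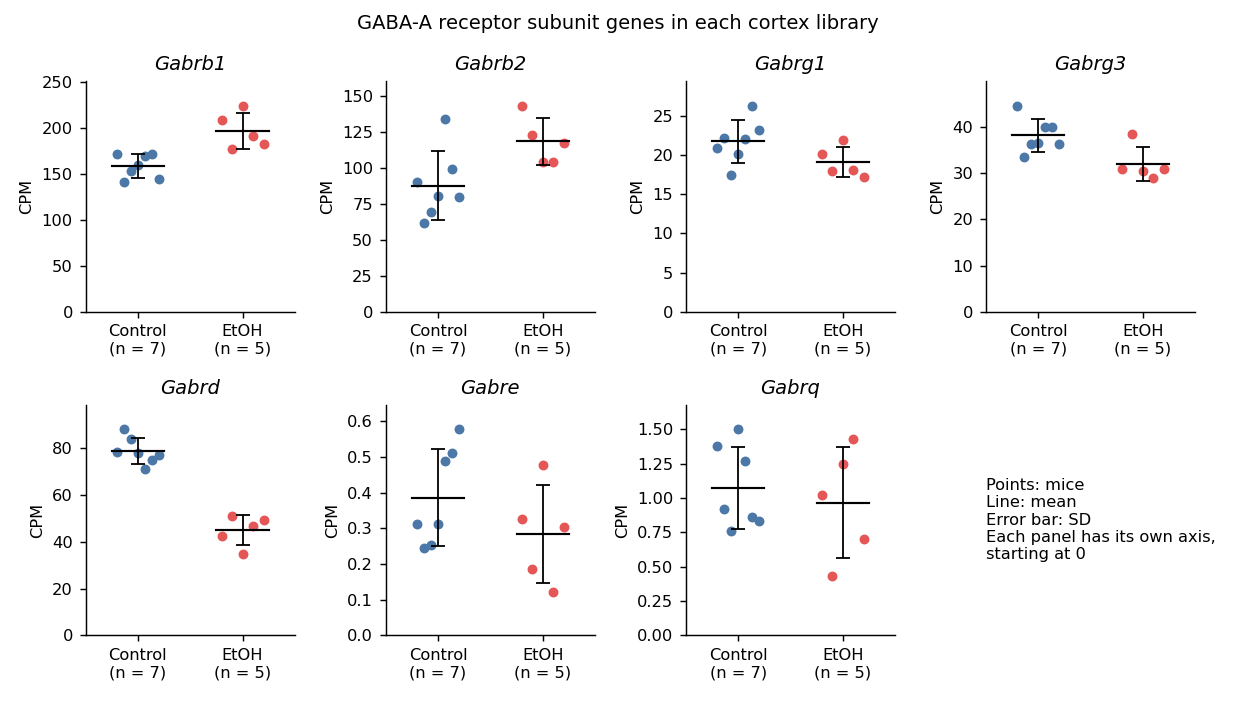
CPM of the 7 subunit genes in each mouse (vertical axis, starting at 0, with a scale of its own in each panel) for 7 control and 5 EtOH mice; points are mice, the line is the mean and the error bar the SD. Gabrd lies between 71.1 and 87.9 CPM in controls and between 34.8 and 51.0 CPM in EtOH mice, and Gabrb1 between 141 and 172 CPM in controls and 177 and 224 CPM in EtOH mice, without overlap.

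The delta subunit gene Gabrd, on chromosome 4 of GRCm39 from 155469407 to 155482872 on the minus strand, was the 1 gene called. In controls its lowest, median and highest levels were 71.1, 77.7 and 87.9 CPM, and in EtOH mice 1 to 5 it had 42.6, 51.0, 34.8, 46.8 and 49.4 CPM. Every EtOH mouse thus lay below every control, as was the case for 4.96% of all genes tested, where 9.81% had no overlap in either direction. The mean fell: controls had 78.8 ± 5.60 CPM (SD, n = 7), EtOH mice 44.9 ± 6.47 CPM (SD, n = 5), and the log2 fold change was -0.81 (standard error, SE, 0.08 and edgeR adjusted p = 1.96e-06), or 0.570 times the control level. Leaving out each mouse in turn gave values from -0.87 to -0.74. An annotated non-coding gene on the opposite strand, Gm69198, shares 203 of the 6257 exon bases of Gabrd, and since the use of strand in the counting is not described, reads of the 2 genes there cannot be told apart.

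Because marker levels of the striatum and hippocampus moved with the groups, Gabrd, which is itself known for high levels in dentate granule cells, is set beside them mouse by mouse. Among controls, the summed striatal level ranged from 1272 CPM in mouse 7 to 2892 CPM in mouse 2. Gabrd was at 77.2 CPM in the former, close to the control median, and at 87.9 CPM in the latter, the highest of the controls. In EtOH mice, where the striatal sum was at most 449 CPM, Gabrd was at most 51.0 CPM. EtOH mouse 3, with the lowest Gabrd, had a hippocampal CA sum of 689 CPM and a choroid plexus sum of 991 CPM, against 11.5 to 278 CPM in the other EtOH mice and at most 21.7 CPM in controls. The dentate sum was 266, 315, 226, 201 and 261 CPM in EtOH mice 1 to 5, where 4 of its 8 markers were called higher and Gabrd was lower. The part of regional makeup in the Gabrd difference was not tested, and since no EtOH library has a striatal level within the control range, the group and this level cannot be told apart.

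**Figure D2:**
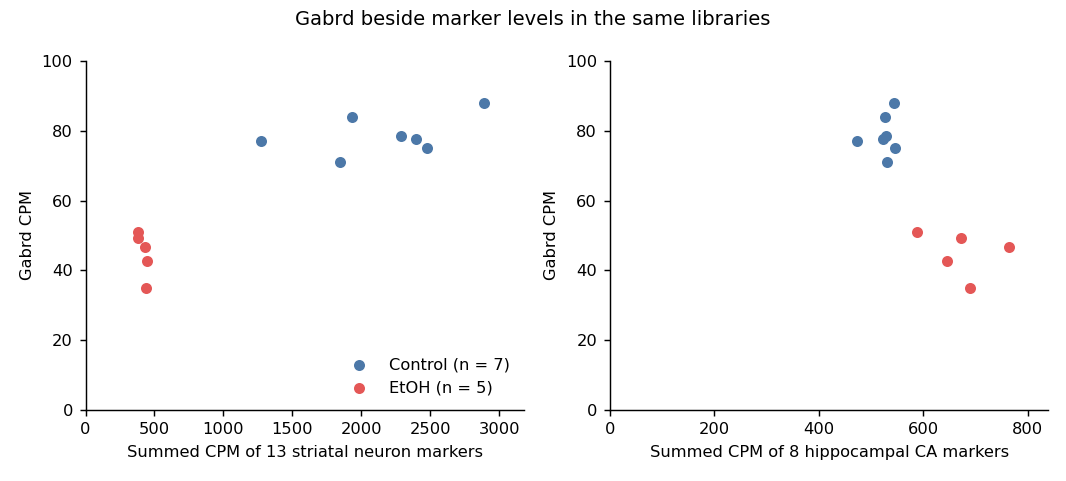
Gabrd CPM (vertical axis) in each mouse against the summed CPM of 13 striatal spiny neuron markers (left) and of 8 hippocampal CA markers (right); each point is 1 mouse, blue for 7 controls and red for 5 EtOH mice. Controls spread from 1272 to 2892 CPM of striatal markers with Gabrd between 71.1 and 87.9 CPM, and EtOH mice sit apart on both axes of both panels.

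By the distance of mean-centred log2 CPM over the 12 mice, the genes most like Gabrd were Stard10, Ngef and Them6, with mean absolute differences of 0.059, 0.060 and 0.069. Their own log2 fold changes were -0.78, -0.77 and -0.79. Ngef encodes a guanine nucleotide exchange factor of neurons and Stard10 a lipid transfer protein. Genes chosen by so small a distance must share the direction of Gabrd. Their lower levels in EtOH mice thus follow from the choice, and the likeness is given as a description.

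The beta subunit genes Gabrb1 and Gabrb2 both had higher levels in EtOH mice, by less than the minimum fold change. Gabrb1 (chromosome 5 from 71815456 to 72319431, plus strand) had a lowest, median and highest level of 141, 160 and 172 CPM in controls, and 209, 177, 224, 191 and 182 CPM in EtOH mice 1 to 5. All EtOH mice lay above all controls, a separation in this direction that 4.84% of all genes tested showed. The mean rose: controls had 159 ± 12.8 CPM (SD, n = 7), EtOH mice 197 ± 19.6 CPM (SD, n = 5), and the log2 fold change was 0.31 (SE 0.07 and edgeR adjusted p = 0.00342). The adjusted p stayed under 0.05 in all 12 fits that left out 1 mouse, with a highest value of 0.0139. The exons of Gabrb1 share 728 of 16877 bases with 4 genes on the opposite strand, among them 101 with Gabra4 and 396 with Commd8.

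Gabrb2 (chromosome 11 from 42310493 to 42523417, plus strand) varied more between mice. Its lowest, median and highest levels in controls were 61.5, 80.6 and 134 CPM, and EtOH mice 1 to 5 had 143, 123, 104, 104 and 117 CPM. The groups overlapped through control mouse 5, whose 134 CPM was above 4 of the 5 EtOH mice, while the other 6 controls lay below all of them. The highest value of each group came from its deepest library. The mean rose: controls had 87.6 ± 23.9 CPM (SD, n = 7), EtOH mice 118 ± 16.3 CPM (SD, n = 5), and the log2 fold change was 0.43 (SE 0.15 and edgeR adjusted p = 0.0379). Without control mouse 5 it was 0.56 (edgeR adjusted p = 0.00101), past the minimum fold change. The adjusted p was above 0.05 without any 1 of control mice 1, 2, 3, 4 and 7 and EtOH mice 1, 2 and 5 (from 0.0571 to 0.107), and under DESeq2 (0.0748). Without both deepest libraries the log2 fold change was 0.50 (edgeR adjusted p = 0.00346).

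Since both beta genes were higher, the 250 bases before a transcription start are shown for each, from RefSeq promoters of GRCm38.p6, in which 6 of the 7 genes matched, all but Gabrd. Of 2 listed starts for Gabrb1 and 3 for Gabrb2, 1 is shown for each. The windows are the second listed start of Gabrb1, at chr5:71699682-71699931, and the first of Gabrb2, at chr11:42420190-42420439, both on the plus strand. Capitals mark matches, on either strand, to the TATA box (letters TATAAA), the GC box (letters GGGCGG), the CCAAT box (those 5 letters) or the cAMP response element (letters TGACGTCA), and no matches overlap.
Gabrb1: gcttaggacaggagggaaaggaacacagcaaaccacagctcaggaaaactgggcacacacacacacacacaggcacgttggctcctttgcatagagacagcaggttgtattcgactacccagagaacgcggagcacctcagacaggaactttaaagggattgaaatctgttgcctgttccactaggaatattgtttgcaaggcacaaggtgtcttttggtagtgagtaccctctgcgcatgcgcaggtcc
Gabrb2: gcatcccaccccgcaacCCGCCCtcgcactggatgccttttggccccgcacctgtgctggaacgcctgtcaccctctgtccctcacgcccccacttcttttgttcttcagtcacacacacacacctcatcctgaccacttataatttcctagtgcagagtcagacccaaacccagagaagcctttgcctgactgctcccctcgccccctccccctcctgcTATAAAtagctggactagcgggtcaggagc
The Gabrb2 window held 1 TATA box and 1 GC box, motifs present in 12.4% and 32.7% of all 32851 promoter windows of this length. These letters were not found in the Gabrb1 window, nor were those of the CCAAT box (33.8% of windows) or the cAMP response element (1.5%). The windows shown were chosen after all had been seen, and the others differ. The first Gabrb1 window was 64.4% G and C with 18 CpG pairs, against 50.8% and 6 in the second, and it also held none of the 4 motifs. The 3 Gabrb2 windows ranged from 36.8% (the third) to 58.8% G and C (the first), with 4 and 8 CpG pairs, and the second held 1 CCAAT box and the third none of the motifs.

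The gamma subunit genes were lower on average in EtOH mice, and 1 of the 2 passed the adjusted p. Gabrg3 (chromosome 7 from 56366213 to 57036936, minus strand) had 33.5, 36.6 and 44.6 CPM as its lowest, median and highest control level, and 31.0, 38.4, 30.5, 28.9 and 30.9 CPM in EtOH mice 1 to 5. EtOH mouse 2 lay within the control range, and the other 4 lay below all controls. The mean fell: controls had 38.2 ± 3.66 CPM (SD, n = 7), EtOH mice 31.9 ± 3.73 CPM (SD, n = 5), and the log2 fold change was -0.26 (SE 0.08 and edgeR adjusted p = 0.0251). The adjusted p was above 0.05 without any 1 of EtOH mice 1, 3, 4 and 5 (from 0.0538 to 0.0609), without both deepest libraries (0.0727) and with the replicate block (0.0684), in which mice of the same number form a pair. Without EtOH mouse 2 the log2 fold change was -0.34 (edgeR adjusted p = 0.00277). A non-coding gene on the opposite strand shares 366 of its 11934 exon bases.

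Gabrg1, on chromosome 5 from 70906506 to 70999960, encodes a gamma subunit that astrocytes also express. Its lowest, median and highest levels were 17.5, 22.0 and 26.3 CPM in controls, and EtOH mice 1 to 5 had 20.1, 18.0, 21.9, 18.1 and 17.2 CPM. The ranges overlapped widely, with 1 EtOH mouse below all controls. Its log2 fold change was -0.19 (SE 0.09 and edgeR adjusted p = 0.135), with means of 21.7 ± 2.71 CPM in controls (SD, n = 7) and 19.0 ± 1.91 CPM in EtOH mice (SD, n = 5). The summed level of 10 astrocyte markers was 3687 to 4200 CPM in controls and 3984 to 4526 CPM in EtOH mice, with 1 marker called higher, Gfap, and 4 higher and 0 lower by the adjusted p alone. With the replicate block, the Gabrg1 log2 fold change was -0.11 (edgeR adjusted p = 0.449).

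The epsilon and theta subunit genes, both on chromosome X, had the lowest levels of the 7, and Gabre was near a floor of 3 counts, which corresponds to between 0.0711 and 0.0944 CPM. Gabre (from 71299605 to 71318409) had 4 to 20 counts per mouse, or 0.245 to 0.577 CPM in controls and 0.121 to 0.477 CPM in EtOH mice, and a log2 difference of -0.44 (SE 0.36 and edgeR adjusted p = 0.400). Its counts were even numbers in 12 of 12 mice, and those of Gabrq in 9 of 12. Among all genes, 76.7% of counts from 1 to 4 were even, against 50.9% of those from 500 to 4999, and what makes low counts even was not tested. Since the handling of read pairs is not given, 1 count may not stand for 1 fragment, and the floor of 3 counts holds only for the counts as deposited. Of 12 markers of hypothalamus and monoamine nuclei, 6 were at 0 in some mouse, 6 were tested and 1, Th, was called lower. They summed to 10.2 to 29.3 CPM in controls and 5.93 to 16.2 CPM in EtOH mice, and their part in the levels of Gabre and Gabrq was not tested. Gabrq (from 71868784 to 71886208) had 14 to 52 counts, or 0.758 to 1.5 CPM in controls and 0.436 to 1.43 CPM in EtOH mice, and a log2 difference of -0.15 (SE 0.28 and edgeR adjusted p = 0.731). A difference of the size seen for Gabrb1, 0.31, is about the size of these standard errors and could not be told from the spread between mice. With 1 mouse left out, the Gabre log2 difference ranged from -0.70 (without EtOH mouse 3) to -0.26 (without EtOH mouse 4).

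**Figure D3:**
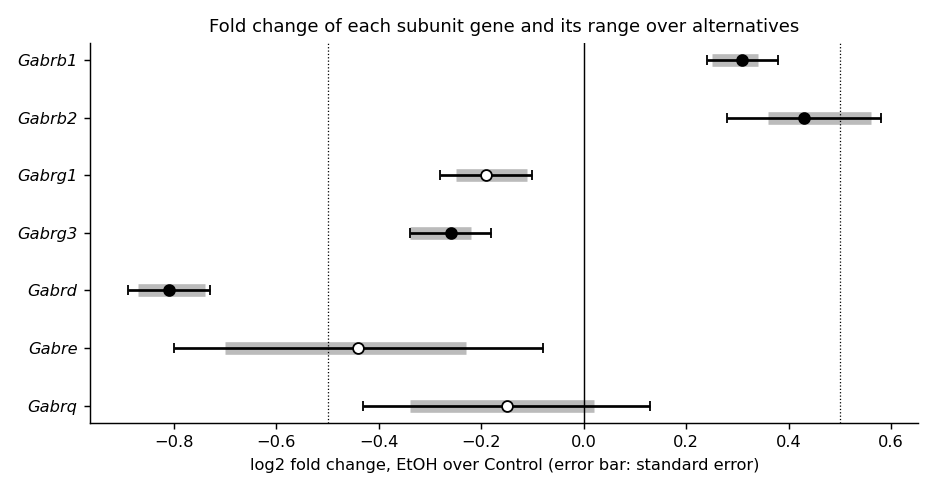
Log2 fold change of each subunit gene, EtOH over control (horizontal axis), with its standard error; filled points passed an edgeR adjusted p of 0.05, open points did not, the grey bar is the range over all alternative fits and dotted lines mark the minimum of 0.5. Gabrd at -0.81 is the point beyond a dotted line, and the grey bars of Gabrb2, which reaches 0.56, and of Gabre, which reaches -0.70, cross one.

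Levels of different genes were compared per kilobase of the union of annotated exons. In controls the order was Gabrd (12.6 ± 0.894 CPM per kb, SD, n = 7), Gabrb1 (9.40 ± 0.756), Gabrb2 (7.98 ± 2.18), Gabrg3 (3.20 ± 0.307), Gabrg1 (2.14 ± 0.267), Gabrq (0.201 ± 0.0560) and Gabre (0.0814 ± 0.0287). Gabrb1 and Gabrb2 overlapped, and every other neighbouring pair in this order was separated in all 7 mice. In EtOH mice Gabrd was the third, at 7.18 ± 1.03 CPM per kb (SD, n = 5), below Gabrb1 (11.7 ± 1.16) and Gabrb2 (10.8 ± 1.49) in every mouse, and it was followed by Gabrg3 (2.68), Gabrg1 (1.87), Gabrq (0.181) and Gabre (0.0597), of which Gabrq and Gabre overlapped. In EtOH mice Gabrb1 and Gabrb2 overlapped too. This change of place depends on the length used. Per kilobase of the main transcript, which is 1.94 kb for Gabrd and 13.76 kb for Gabrb1, Gabrd stayed first in both groups, at 40.7 CPM per kb in controls and 23.2 CPM per kb in EtOH mice (Gabrb2, the next there, had 15.5 with overlap), and Gabrg1 came before Gabrg3 with overlap.

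Ratios within a library do not depend on its scaling and address the balance between subunits. The log2 ratio of Gabrd to Gabrb2 per kilobase was 0.61, 1.33, 1.09, 0.76, -0.10, 0.41 and 0.77 in control mice 1 to 7, and -0.94, -0.46, -0.77, -0.34 and -0.44 in EtOH mice 1 to 5. Every EtOH mouse lay below every control, and the lowest control was mouse 5. The ratio itself went from 1.62 to 0.664 (geometric means), a difference of -1.29 on the log2 scale (two-sided exact permutation p = 0.00253, or 0.00758 after adjustment over 3 ratios). Both of its genes had been tested singly above, so this is the same difference on another scale and no separate evidence. The level of the ratio and the sign of its log2 values depend on the length used, while the difference between the groups does not. Per kilobase of the main transcript, mean levels of Gabrd were above those of Gabrb2 in both groups (40.7 against 11.5 CPM per kb in controls, 23.2 against 15.5 in EtOH mice).

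In the pair of beta genes and the pair of gamma genes tested, no shift of balance was detected. For Gabrb1 to Gabrb2 the log2 ratio was 0.27 ± 0.29 (SD, n = 7) in controls and 0.12 ± 0.25 (SD, n = 5) in EtOH mice (exact permutation test, two-sided, p = 0.343, adjusted 0.515). For Gabrg1 to Gabrg3 it was -0.58 ± 0.21 (SD, n = 7) and -0.51 ± 0.24 (SD, n = 5) (exact permutation test, two-sided, p = 0.572, adjusted 0.572). With each mouse left out, the Gabrb1 to Gabrb2 difference between the groups, -0.16 with all mice, ranged from -0.25 (without control mouse 5 or EtOH mouse 3) to -0.10 (without EtOH mouse 2). That of Gabrg1 to Gabrg3, 0.07 with all mice, ranged from 0.01 (without EtOH mouse 3) to 0.16 (without EtOH mouse 2). None of these fits passed (lowest adjusted exact permutation p = 0.11). The spread between mice, an SD of 0.21 to 0.29, is no limit of detection, and shifts of this size or larger may go unseen.

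**Figure D4:**
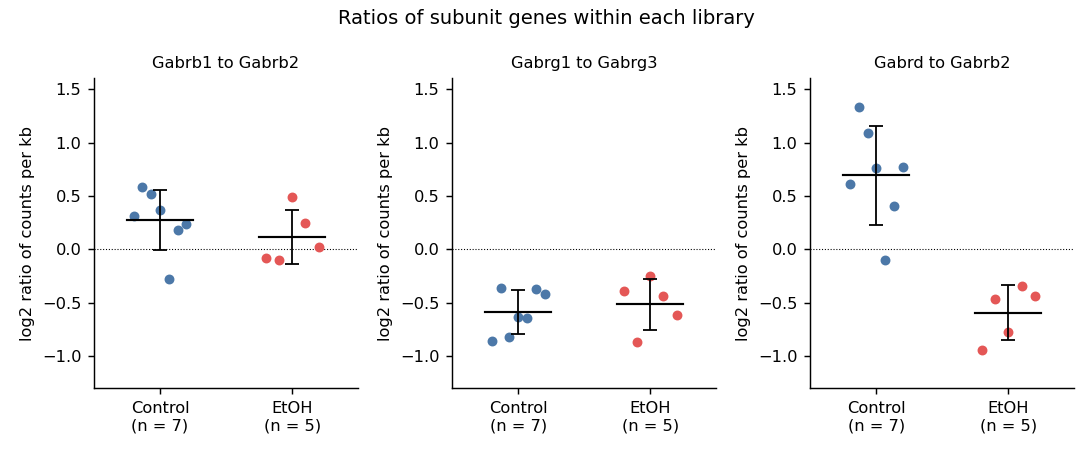
Log2 ratio of counts per kilobase (vertical axis) for 3 pairs of subunit genes in 7 control and 5 EtOH mice; points are mice, the line is the mean and the error bar the SD. The Gabrd to Gabrb2 ratio lies between -0.10 and 1.33 in controls and between -0.94 and -0.34 in EtOH mice, and the other 2 ratios overlap between the groups.

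Most subunit genes lie in clusters with alpha subunit genes, so the values of cluster neighbours are set side by side, without a test of their differences. On chromosome 5, Gabra4 and Gabrb1 lie head to head and overlap at their starts by 0.3 kb. Gabra4 differed by -0.06 on the log2 scale (SE 0.05 and edgeR adjusted p = 0.462) beside 0.31 for Gabrb1, and in the same cluster Gabra2 had 0.37 (SE 0.10 and edgeR adjusted p = 0.0141). On chromosome 7, Gabrg3 is 18.2 kb from Gabra5, an alpha subunit gene with high levels in the hippocampus, which rose by 0.79 (SE 0.07 and edgeR adjusted p = 6.93e-07) where Gabrg3 had -0.26. Exons of Gabra5 share 714 bases with genes on the opposite strand. On chromosome X, Gabra3, between Gabre and Gabrq, had -0.16 (SE 0.06 and edgeR adjusted p = 0.0713). Gabrd lies apart from these clusters.

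**Figure D5:**
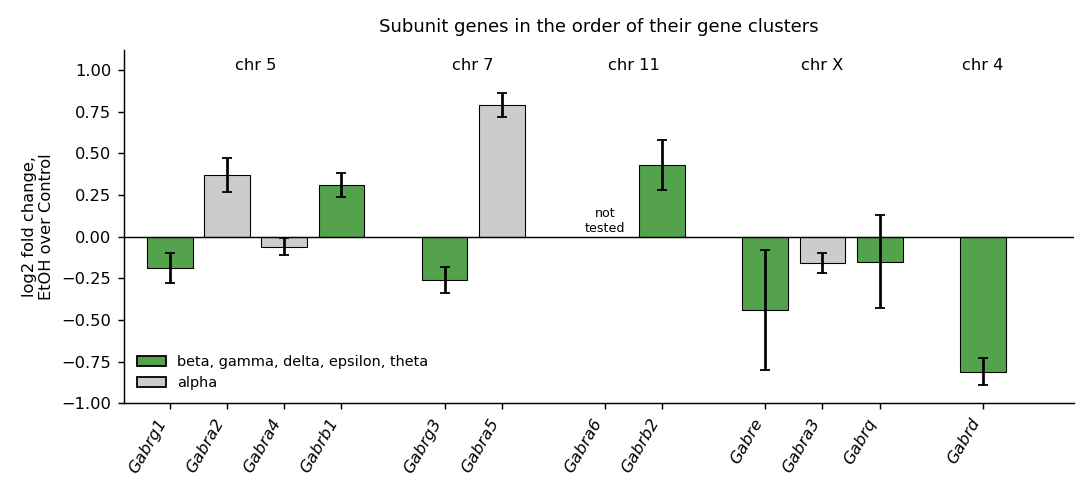
Log2 fold change, EtOH over control (vertical axis, error bars are standard errors), of the 7 subunit genes (green) and of the alpha subunit genes reported here (grey) in their order along each chromosome; Gabra6 did not pass the expression filter. On chromosome 7 the bars of Gabrg3 (-0.26) and Gabra5 (0.79) point in opposite directions.

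Of 54 further genes of GABA-A signalling, 48 were tested and 3 were called, Gabra5 as higher and Gad2 and Slc32a1 as lower, against 8.29% of all genes. Gad2, which makes GABA, fell: controls had 241 ± 42.4 CPM (SD, n = 7), EtOH mice 156 ± 7.13 CPM (SD, n = 5), and the log2 fold change was -0.63 (SE 0.10 and edgeR adjusted p = 0.000288). Slc32a1, which loads GABA into vesicles, fell: controls had 125 ± 19.3 CPM (SD, n = 7), EtOH mice 73.6 ± 2.64 CPM (SD, n = 5), and the log2 fold change was -0.77 (SE 0.09 and edgeR adjusted p = 1.16e-05). Striatal spiny neurons use GABA, and their 13 markers fell in the same libraries, and of 8 interneuron markers 1 was called higher and 1 lower. The interneuron list had a median log2 fold change of -0.19. Its sum was 549 to 658 CPM in controls and 522 to 597 CPM in EtOH mice. By the adjusted p alone, 2 of its markers were higher and 1 lower, where 23.7% of all genes passed. At an unadjusted p under 0.05, which 36.5% of all genes had, 2 were higher and 4 lower. The part of either cell type in the Gad2 and Slc32a1 values was not tested. Gabra5 rose: controls had 64.7 ± 2.24 CPM (SD, n = 7), EtOH mice 112 ± 16.2 CPM (SD, n = 5), and its groups did not overlap. In the list of 5 tested alpha subunits, 1 was thus called, and in that of 8 genes of GABA synthesis, release, uptake and breakdown, 2.

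The genes that anchor the receptor and bring it to the membrane, among them gephyrin (Gphn), held no call. Of 19 tested, 0 were called by edgeR, DESeq2 or limma voom, although 11 had an unadjusted p under 0.05, 4 higher and 7 lower, and 5 an adjusted p under 0.05. Of all genes tested, 8.29% were called by edgeR, 36.5% had an unadjusted p under 0.05 and 23.7% an adjusted p under 0.05. Of 8 genes of chloride transport 0 were called by any of the 3 tools, with both an unadjusted and an adjusted p under 0.05 for 3. Of 7 tested genes of neurosteroid synthesis 0 were called by any of the 3 tools, and 0 had an unadjusted p under 0.05. The median log2 fold changes of these 3 lists were -0.06, 0.08 and -0.01.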

How the data were processed

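The authors had cortex RNA sequenced by BGI, checked reads with FastQC 0.11.9, mapped them with STAR (build GRCm39, Gencode Release 28) and obtained gene counts with featureCounts. They deposited 1 table of raw counts per gene symbol, here treated as estimated counts, since 61 symbols hold values that are not whole (none of the 7 genes); values were rounded. Settings for strand, read pairs and multiple matches are not given in the sources used here.

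Genes were filtered with filterByExpr (16059 kept), scaled with TMM (factors 0.982 to 1.02) and tested by edgeR's quasi-likelihood F-test, with p-values adjusted over all genes by the Benjamini-Hochberg method (R 4.3.3, edgeR 4.0.16, limma 3.58.1, DESeq2 1.42.0). Log2 CPM used a prior count of 2. The thresholds were an adjusted p of 0.05 and a log2 fold change of 0.5. Standard errors are the fold change divided by the root of the F statistic. Ratios were tested exactly over all 792 splits of 12 mice, whose smallest p is 0.00126. Positions and lengths are from the Gencode release 39 annotation of GRCm39, and coding sequences were aligned with mafft. On simulated data holding 200 genes with a true log2 difference of 1, edgeR recovered 191 of them with 5 false calls among 15915 genes.

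The 7 genes and all lists were chosen with earlier results of these data known. Named are the 7 genes, listed genes that were called, alpha genes in their clusters and the 3 genes nearest to a called one. The length of the main transcript was added as an alternative after the values had been seen, and some subunit genes are not reported here. No 2 libraries of a group agreed within sampling noise (chi-square over its degrees of freedom 7.88 or more). Replicate numbers did not pair the mice: deviations of the 5 same-numbered pairs correlated between -0.11 and 0.02.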

Additional observations from a re-analysis of the deposited data

Results flagged for a closer look

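Of 20 sets of values looked at (7 genes and 3 ratios in each group), 1 held a mouse far from the rest of its group, where chance gives about 1. The Gabrg3 level of EtOH mouse 2 was 5.27 on the log2 CPM scale, where the next EtOH mouse had 4.96, and without this mouse the Gabrg3 log2 fold change was -0.34 in place of -0.26.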

How the results depend on the processing

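Gabrd and Gabrb1 kept their direction and their adjusted p under 0.05 in all alternatives run, which were DESeq2, limma voom, other scaling factors, other expression filters, the replicate block, the fit without the deepest library of each group and each mouse left out. The cause of the changes below was not tested. With each mouse left out, between 1 and 2 of the 7 genes were called (2 without control mouse 5, Gabrb2 being the second), between 2 and 4 passed the adjusted p alone (2 without EtOH mouse 1 or 5), and between 1162 and 1503 of all genes were called. A minimum log2 fold change of 1 left 0 of the 7 genes, 0 of the 48 partner genes and 524 of all genes, against 1331 at 0.5, and no minimum gave 13 partner genes and 3810 of all genes. Gabrq, which never passed, ranged from -0.34 to 0.02 in log2 fold change with each mouse left out (0.02 without EtOH mouse 2). With the replicate block, a sign-flip test over 5 pairs gave a Gabrd to Gabrb2 difference of -1.33 (exact p = 0.0625, the smallest 5 pairs allow, adjusted 0.188), so that test could not pass. The replicate block changed the side of the threshold for Gabrg3 among the 7 genes, and for no other of them. The deviations of 0 of the 5 EtOH mice correlated best with the control of the same number. Gabre has no value in the fit that asks for at least 10 counts in every mouse. Gabre and Gabrq have at most 52 counts in a mouse, and the part of depth in their spread was not tested.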
